A study of Mus musculus with 161 samples.

Results

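Heat shock and endoplasmic reticulum (ER) chaperones were followed in mouse bone marrow-derived macrophages (BMDMs) through 10 genes picked by name: Hspa1a, Hspa1b, Hsph1, Dnajb1, Hsp90aa1 and Hspa8, whose products work in the cytosol, and Hspa5, Hsp90b1, Pdia4 and Calr, whose products work in the ER. All 10 were present among the 8307 genes of the bulk RNA-seq matrix, which covered 48 conditions. BMDMs are macrophages grown in a dish from bone marrow progenitors, here from C57BL/6J mice aged 6 to 10 weeks, in a base medium with 20 ng/mL macrophage colony stimulating factor (M-CSF) that every group shared. On culture day 7 the dishes were left unstimulated (M0), given IL-4 at 25 ng/mL (M2), or given LPS, from the outer membrane of Gram-negative bacteria, at 100 ng/mL together with IFN-γ at 25 ng/mL (M1). After 24 h some M1 and M2 dishes were washed with PBS and given the opposite cytokines (M1→M2, M2→M1) or base medium only (M1→M0, M2→M0). All times are hours since the first stimulation. M1 and M2 cells were collected at 1, 2, 4, 6, 12, 24, 48 and 96 h, the 4 switched arms at 25, 26, 28, 30, 36, 48 and 96 h, and M0 cells at 0, 24, 48 and 96 h. There were 3 libraries in 45 conditions, 4 in 96 h M0 and 28 h M2→M1, and 2 in 48 h M0. The libraries of a condition are named biological replicates, but no label ties them to a mouse or a dish, and the p-values therefore rest on a spread between libraries that may be technical. ATAC-seq of 9 libraries and single-cell RNA-seq of 7 libraries from the same kind of culture were also used.

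Chaperones bind unfolded or newly made proteins and help them fold. In the cytosol, Hsp70 proteins do this in cycles driven by ATP, together with J-domain partners that deliver the client and Hsp110 proteins that exchange the nucleotide. Hsp90 acts on kinases and receptors that are close to their final fold. When unfolded proteins build up in the cytosol, heat shock factor 1 (HSF1) binds heat shock elements in the promoters of Hsp70 and partner genes and raises their transcription. In the ER, the Hsp70 protein BiP, the Hsp90 protein GRP94, lectin chaperones and disulfide isomerases fold secreted and membrane proteins. Their genes share the ER stress element, which is read by ATF6 and XBP1, factors of the unfolded protein response. In macrophages GRP94 folds Toll-like receptors and integrins, and calreticulin helps load MHC class I molecules.

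Promoter sequences from RefSeq (GRCm38.p6, 300 bases a gene start, 250 of them upstream) were found for 8 of the 10 genes, in 10 entries, and not for Hspa8 and Hsp90aa1. A core of 2 facing heat shock repeats, GAANNTTC or TTCNNGAA, was searched on both strands. It was found upstream of the start in Hspa1a, Hspa1b and Hsph1, and in 15.1% of all 32851 promoter entries. The ER stress element, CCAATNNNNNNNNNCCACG on either strand, was found in Hspa5 and Calr and at 2 places in Hsp90b1, and in 39 promoter entries in all (0.119%). Pdia4 and Dnajb1 held neither. A spacing known for STAT6, the factor that acts below the IL-4 receptor, TTCNNNNGAA, was found in none of the 10 entries and in 6.95% of all. The stretches of 100 bases around the matches are shown because the cytosolic and the ER members differed in which element they held. Capitals mark the match, and each sequence is read 5′ to 3′ along the strand of its gene.
Hspa1a, chr17:34972207-34972306, minus strand: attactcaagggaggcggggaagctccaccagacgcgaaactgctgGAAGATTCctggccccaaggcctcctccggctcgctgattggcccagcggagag
Hspa1b, chr17:34959289-34959388, minus strand: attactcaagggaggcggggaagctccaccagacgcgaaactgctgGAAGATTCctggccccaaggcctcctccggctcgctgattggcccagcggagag
Hsph1, chr5:149636337-149636436, minus strand: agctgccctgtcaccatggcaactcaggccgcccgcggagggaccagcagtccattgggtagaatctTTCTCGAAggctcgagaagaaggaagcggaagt
Hspa5, chr2:34771984-34772083, plus strand: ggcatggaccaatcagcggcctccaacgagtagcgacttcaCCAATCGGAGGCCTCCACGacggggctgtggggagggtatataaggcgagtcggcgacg
Hsp90b1, chr10:86705595-86705694, minus strand: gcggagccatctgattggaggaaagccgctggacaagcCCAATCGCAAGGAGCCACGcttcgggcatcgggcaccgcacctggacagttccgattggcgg
Hsp90b1, chr10:86705493-86705592, minus strand: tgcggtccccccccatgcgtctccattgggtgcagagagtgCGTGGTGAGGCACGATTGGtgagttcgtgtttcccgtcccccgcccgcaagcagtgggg
Calr, chr8:84847035-84847134, minus strand: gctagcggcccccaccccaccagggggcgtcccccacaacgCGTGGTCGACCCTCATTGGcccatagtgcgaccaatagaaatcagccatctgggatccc
The heat shock match began 104 bases before the start in Hspa1a and in Hspa1b, whose upstream 250 bases were the same at 247 positions (98.8%), and 33 bases before the start in Hsph1. The ER stress element began at 65 bases before the start in Hspa5, at 212 and 107 in Hsp90b1 and at 162 in Calr. In the nearer match of Hsp90b1 and in Calr it lay as the reverse complement.

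The genes lie on 8 chromosomes of mm10 (GENCODE vM21). Hspa1a (chr17:34969190-34972156) and Hspa1b (chr17:34956436-34959238) are intronless neighbours on the minus strand. In Hspa1a 69.4% of the 35-base stretches of the transcript, the length of a sequenced read, occur in another gene as well, in Hspa1b 66.8%, in Hspa8 78.6%, in Hsp90aa1 61.8% and in Hsp90b1 16.4%. The 35-base stretches of Hspa1a were shared with Hspa1b (62.6% of them) and with the antisense gene Gm20481, which overlaps it. Hspa8 and Hsp90aa1 shared theirs with pseudogenes such as Gm15459 and Gm12346. How reads were divided between such genes is not given in the sources used here. The libraries were made with a TruSeq v2 kit and aligned with TopHat at default settings, neither of which keeps the strand, so reads of Hspa1a and of Gm20481 cannot be told apart where the genes overlap. The values of these 5 genes are therefore less certain than those of Hsph1, Hspa5 and Pdia4, which shared none, and of Calr (1.81%) and Dnajb1 (0.475%).

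The bulk values are FPKM, fragments per kilobase of transcript scaled to library size, so levels can be compared between genes. Read counts and depth are unknown. FPKM of the 8307 genes summed to between 354027 and 710082 per library. Of the variance left within conditions, 32.6% lay on 1 component on which replicate 1 was highest in 45 of 48 conditions, and Pdia4 was lowest in replicate 1 in 40 of the 48 conditions. Of 10 macrophage markers 9 were in the matrix, and their summed level was between 2971 and 12010 FPKM over all libraries. It was 9870 to 10940 FPKM in 0 h M0 and 8721 to 10950 in 96 h M0. Lower ranges were found in 12 h M1 (7715 to 8307), 24 h M1 (5998 to 7538) and 96 h M1 (4161 to 6661). The same held for 24 h M2 (4829 to 5417) and 36 h M2→M1 (4279 to 5511). The summed level of 10 markers of neutrophils and their precursors was 238 to 277 FPKM in 12 h M1, 17.4 to 321 in 24 h M2, 22.8 to 328 in 24 h M0 and 9.10 to 19.3 in 96 h M0, against 1024 to 2836 in 0 h M0. It overlapped with 0 h M0 at 1, 2, 4 and 6 h M1 (418 to 5693 FPKM) and at 1 and 2 h M2 (808 to 3898), and lay below it in the other 41 conditions. Of the dendritic cell markers only Clec9a was in the matrix, with 7.93 to 9.66 FPKM in 12 h M1 and 14 to 17.0 in 36 h M2→M1, against 1.17 to 1.68 in 0 h M0, and it was above 0 h M0 also in 6 h M1, 30 h M2→M1 and 48 h M2→M1. It was therefore high in the conditions where Hspa1a and Hspa1b were highest. Of the B cell markers only Ighm was in the matrix, with 3.44 to 6.23 FPKM in 12 h M1 and 12.7 to 17.3 in 24 h M2, against 72.1 to 95.3 in 0 h M0. The summed level of 3 megakaryocyte markers was 380.7 to 529.5 FPKM in 0 h M0 and 22.82 to 52.37 in 96 h M1. That of 2 fibroblast markers was 2.403 to 16.36 FPKM in 0 h M0, 18.15 to 128 in 96 h M0 and 0.02473 to 0.8094 in 96 h M1. The part of these markers in the results was not tested.

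In mean level over the 48 conditions, Calr, Hspa5, Hsp90b1 and Hspa8 were the most abundant of the 10 genes, while Hspa1a and Hspa1b were near the floor in most conditions. Hspa1a was above 10 FPKM, the authors' limit for keeping a gene, in 2 libraries, both of 36 h M2→M1, and no other library of any condition reached that level. The gene is in the matrix through that condition alone, so its values in 36 h M2→M1 are given below as a description with no test. Hspa1b reached the limit in 12 libraries, all of cells in M1 cytokines (2, 6 and 12 h M1 and 26, 30 and 36 h M2→M1), and 3 of the 12 were of 12 h M1 and 3 of 36 h M2→M1. Its condition mean reached the limit in 3 conditions, 12 h M1 (19.5 FPKM), 30 h M2→M1 (11.5) and 36 h M2→M1 (64.1). The calls of Hspa1b in any of these conditions are on values that brought it into the matrix or may have done so. They are no independent support, also within the counts of members below. The median over conditions was 0.202 FPKM for Hspa1a and 0.619 for Hspa1b. The highest and lowest conditions differed least in Dnajb1 (4.24-fold), Hspa5 (4.51-fold), Hsp90aa1 (4.70-fold), Hsp90b1 (4.71-fold) and Calr (5.13-fold), and more in Hsph1 (7.42-fold), Pdia4 (10.4-fold) and Hspa8 (18.4-fold). The cytosolic members Hspa1a, Hspa1b and Dnajb1 were highest in 36 h M2→M1 and next in 12 h M1, without overlap of the libraries only in Dnajb1. Hsp90aa1 and Hspa8 were highest in 12 h M1 and next in 36 h M2→M1, with ranges of libraries that overlapped. The ER members Hsp90b1 (48 h and 24 h M2) and Pdia4 (4 h and 6 h M2) were highest in M2 cells, Calr in 24 h M2 and 25 h M2→M1, and Hspa5 in 25 h and 26 h M2→M1, and in each of these pairs of conditions the ranges overlapped. Hsph1 was highest in 30 h M1→M2 and next in 96 h M2, with an overlap, and lowest in 4 h M1.

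**Figure D1:**
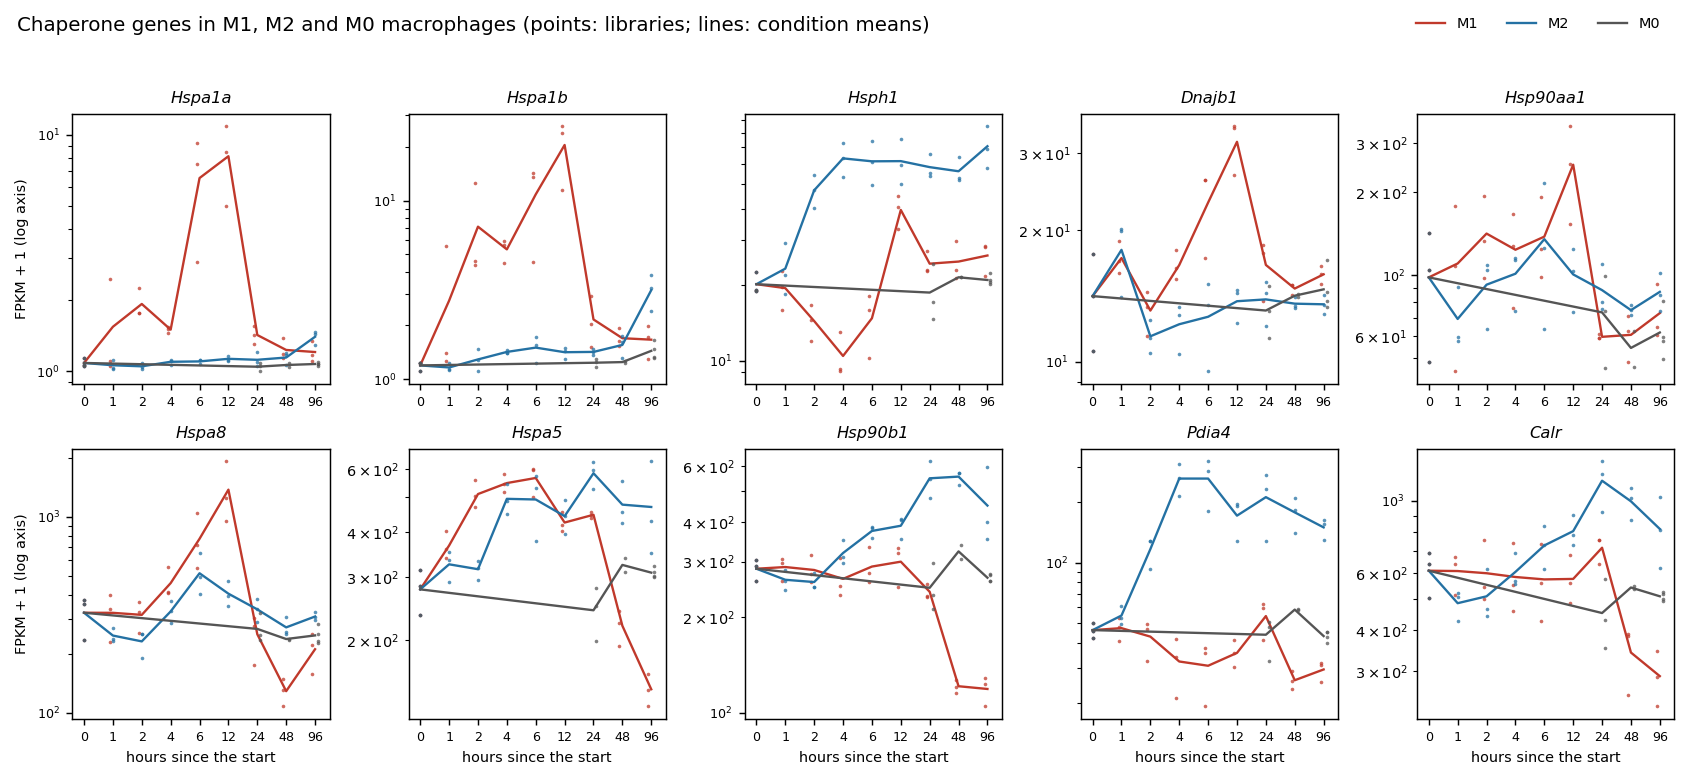
Levels of the 10 genes (FPKM + 1, log axis) against hours since the start (times evenly spaced) in M1 (red), M2 (blue) and M0 (grey) cells; points are libraries and lines join the means of each condition. Hspa1a and Hspa1b stood out at 6 and 12 h M1, Hspa8 reached 952 to 1928 FPKM at 12 h M1, and Hsph1 and Pdia4 separated M2 from M1 cells from 2 h on.

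The first comparison asked how the genes responded to IFN-γ and LPS. Hspa1a and Hspa1b, the heat-inducible Hsp70 genes, rose to a peak at 12 h in M1 cells and had fallen again at 24 h. Hspa1a had 4.01, 7.43 and 9.93 FPKM in 12 h M1, against 0.141, 0.0509 and 0.0595 in 0 h M0 (log2 difference 2.84 ± 0.28, adjusted p = 1.93e-16, limma on log2(FPKM + 1), n = 3 each). Hspa1b had 10.4, 25.2 and 22.8 FPKM in 12 h M1, against 0.238, 0.107 and 0.234 in 0 h M0 (log2 difference 4.01 ± 0.40, adjusted p = 4.17e-16). These 12 h libraries are among those that brought Hspa1b into the matrix, so its p-value is no independent support. Every 12 h M1 library of both genes lay above every 0 h M0 library, and replicate 1 was the lowest of the 3 at 12 h. The 1 FPKM added before the log understates these changes, as the 0 h levels lay well under 1 FPKM. Here and below, ± after a log2 difference is the standard error, from 1 spread per gene pooled over all 48 conditions. Most of these lay near the floor for Hspa1a and Hspa1b, so the p-values of these 2 genes do not measure the spread at 12 h M1 itself. At 6 h Hspa1a stood at 1.89, 6.54 and 8.26 and Hspa1b at 3.51, 12.6 and 13.3 FPKM, with log2 differences from 0 h M0 of 2.44 and 3.01. An earlier, smaller rise was seen at 2 h, where Hspa1b had 11.5, 3.35 and 3.58 and Hspa1a 1.26, 0.755 and 0.763 FPKM (log2 differences 2.40 and 0.82). At 4 h Hspa1a was down to 0.544, 0.454 and 0.502 FPKM and did not pass the test (0.47, adjusted p = 0.131), while Hspa1b still did (2.15). The Hspa1a call at 2 h was lost without replicate 2 (0.86, adjusted p = 0.0976) or 3 (0.86, adjusted p = 0.0928) and with a pseudocount of 10 (0.12, adjusted p = 0.391) or after quantile normalization (0.16, adjusted p = 0.644).

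The other cytosolic members shared the 12 h peak in M1 cells but not the path to it. Hspa8, the constitutive Hsc70, had 952, 1242 and 1928 FPKM in 12 h M1, against 374, 235 and 359.6 in 0 h M0 (log2 difference 2.05 ± 0.21, adjusted p = 3.12e-15), and at 1374 ± 501 FPKM (SD, n = 3) it was the most abundant of the 10 genes there. Hsp90aa1, the inducible cytosolic Hsp90, had 252, 153 and 347 FPKM in 12 h M1, against 141, 47.3 and 104 in 0 h M0 (log2 difference 1.41 ± 0.30, adjusted p = 1.67e-05). The ranges did not meet in either gene, though replicate 2 of 12 h M1 was close to replicate 1 of 0 h M0 in Hsp90aa1. Dnajb1, the main J-domain partner of inducible Hsp70, had 25.7, 33.2 and 33.6 FPKM, against 9.57, 16.6 and 13.2 in 0 h M0 (log2 difference 1.19 ± 0.14, adjusted p = 2.56e-12). Hsph1, the Hsp110 exchange factor, had 32.1, 39.6 and 44 FPKM, against 17.9, 18.1 and 21.4 in 0 h M0 (log2 difference 0.97 ± 0.19, adjusted p = 4.88e-06). In both genes all 3 libraries of 12 h M1 lay above those of 0 h M0. Hspa8 and Dnajb1 had already passed at 6 h (1.23 and 0.72), Hspa8 also at 4 h (0.52), where quantile normalization turned its direction (-0.34). Hsph1 went the other way before that: it fell at 2, 4 and 6 h (-0.49, -0.96 and -0.48), to 8.1, 8.32 and 12 FPKM at 4 h. The 6 h fall of Hsph1 was lost without replicate 1 (-0.28, adjusted p = 0.261), and the 2 h fall without any 1 replicate (-0.55 to -0.41, adjusted p = 0.0527 to 0.141). The 4 h call of Hspa8 was lost without replicate 2 (adjusted p = 0.239) or 3 (0.182). With replicate number as a block Dnajb1 also passed at 4 h (0.26, adjusted p = 0.0296) and 24 h (0.26, adjusted p = 0.0358).

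The rise into 12 h and the return by 24 h were tested as steps, a comparison added after the values were seen. Between 6 and 12 h M1, Hspa1b, Hsph1, Dnajb1, Hsp90aa1 and Hspa8 rose, Hsph1 most (1.45 ± 0.19), while Hspa1a did not pass the test (0.40, adjusted p = 0.234). The call for Hspa1b was lost without replicate 2 (adjusted p = 0.148) or 3 (0.133), and that for Hsp90aa1 without replicate 1 (0.0732) or 3 (0.123). Between 12 and 24 h M1 all 6 cytosolic members fell, as did Hsp90b1 (-0.31), against 23.6% of all genes, and quantile normalization turned the value of Hsp90b1 to 0.02. Hspa8 had 174, 302 and 276 FPKM in 24 h M1 (-2.43 ± 0.21), Hsp90aa1 58, 60.4 and 58 FPKM (-1.99 ± 0.30) and Hspa1b 0.52, 1.92 and 1.03 FPKM (-3.21 ± 0.40). No library of 24 h M1 reached the lowest library of 12 h M1 in these 3 genes. Over these steps and the matching ones of M2→M1 cells, 11 of 40 pairs of a gene and a step were higher and 16 lower, against 20.1% and 22.8% over all genes, and 10 and 15 of 38 without the steps of Hspa1a into and out of 36 h M2→M1. The fall of Hsph1 was lost without replicate 2 (adjusted p = 0.0568) and that of Hsp90b1 without replicate 1 (adjusted p = 0.214) or 3 (0.202), and with the block Pdia4 was higher at 24 than at 12 h M1 (0.60, adjusted p = 0.00816).

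Of the ER members, Hspa5 was the one that passed as higher in M1 cells than in 0 h M0. Hspa5, which encodes BiP, rose early in M1 cells and was highest there at 6 h, with 501, 596 and 597 FPKM, against 234, 312 and 281 in 0 h M0 (log2 difference 1.04 ± 0.15, adjusted p = 2.58e-09). All 3 libraries at 6 h stood above those of 0 h M0. It had passed the test from 2 h (0.89) and still did at 24 h (0.70). At 96 h Hspa5 was below the start, with 144, 159.9 and 129.6 FPKM (-0.92 ± 0.15). Hsp90b1, which encodes GRP94, had its highest M1 mean at 12 h, did not pass the test up to 24 h and fell at 48 and 96 h, to 119.9, 126 and 115 and 104, 122 and 128 FPKM, against 290.0, 259 and 303 in 0 h M0 (log2 differences -1.23 and -1.26). Calr, a calcium-binding lectin chaperone, had 233, 344 and 287 FPKM in 96 h M1, against 636, 501 and 688 in 0 h M0 (log2 difference -1.08 ± 0.18, adjusted p = 3.28e-07). In both genes every late M1 library lay below every 0 h M0 library. Pdia4, a disulfide isomerase also called ERp72, fell at 6, 48 and 96 h (-0.64, -0.83 and -0.65), and with replicate number as a block also at 4 h (-0.57, adjusted p = 0.00822). Hspa8 joined the late fall, to 107, 147 and 129.7 FPKM at 48 h (-1.31 ± 0.21). The fall of Pdia4 at 96 h was lost without replicate 2 (-0.69, adjusted p = 0.14) or 3 (-0.65, adjusted p = 0.222), and that at 6 h without any 1 replicate (adjusted p = 0.0716 to 0.121). Without replicate 3 the fall of Pdia4 at 48 h was lost as well (adjusted p = 0.13), and that of Hspa8 at 96 h was lost without replicate 1 (adjusted p = 0.172) or 3 (0.112). Quantile normalization ended the calls of Hspa5 at 2, 4, 6 and 24 h and turned its 12 h value (0.63 ± 0.15) to -0.08.

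In all, 19 of 80 pairs of a gene and a time were higher in M1 than in 0 h M0 and 13 were lower, against 30.4% and 22% of such pairs over all 8307 genes. The share of members called in either direction was thus below the background. At 12 h 7 of 10 were higher and none lower, against 37.1% and 27.3% of all genes. No member was lower at 12 h at an unadjusted p below 0.05 either. Of all genes called in these comparisons 57.9% were higher, and 45% when all libraries were shifted to the same median or 43.0% after quantile normalization. The same-median shift moved the median of all genes by -0.206 to 0.0772 on the log2 scale and quantile normalization by -0.279 to 0.12, depending on the comparison. In bulk RNA, fewer cells of a type and less RNA per cell cannot be told apart.

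In M2 cells Hsph1 and Pdia4 rose at 2 h and stayed high to 96 h, and the remaining ER members followed. Hsph1 had 46.6, 39.2 and 53.4 FPKM in 2 h M2, against 17.9, 18.1 and 21.4 in 0 h M0 (log2 difference 1.23 ± 0.19, adjusted p = 1.52e-07), and 57.2, 84.3 and 67.9 FPKM in 96 h M2 (1.80 ± 0.19). Pdia4 had 127, 92.2 and 127 FPKM in 2 h M2 and 214, 261 and 306 in 4 h M2, against 41.4, 44.9 and 49.2 in 0 h M0 (4 h: log2 difference 2.49 ± 0.29, adjusted p = 3.19e-12). No library of either gene from 2 h M2 on overlapped with 0 h M0, and in Pdia4 replicate 1 was the lowest at 4, 6, 12, 24 and 48 h. Hspa5 passed the test from 4 h on (0.84 at 4 h, 1.08 at 24 h), Hsp90b1 from 6 h on (0.40 at 6 h, 0.94 at 24 h) and Calr at 24 and 48 h (0.92 and 0.72). At 24 h Hspa5 had 526, 595 and 626 FPKM, against 234, 312 and 281 in 0 h M0. Hsp90b1 had 476, 547 and 623 FPKM, against 290.0, 259 and 303, and Calr had 925, 1205 and 1326 FPKM, against 636, 501 and 688 in 0 h M0. The 24 h M2 libraries of these 3 genes all lay above the 0 h M0 ones. With replicate number as a block, Calr also passed at 12 h (0.41, adjusted p = 0.0229). The Hsp90b1 call at 6 h was lost without replicate 2 (adjusted p = 0.0747) and the Calr call at 48 h without replicate 2 (adjusted p = 0.101).

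The heat-inducible Hsp70 genes Hspa1a and Hspa1b stayed near the floor in M2 cells before 96 h, and Hspa1a did at 96 h too. Hspa1b then had 1.4, 2.24 and 2.81 FPKM, against 0.238, 0.107 and 0.234 in 0 h M0 (log2 difference 1.38 ± 0.40, adjusted p = 0.00284), a call lost without replicate 2 (adjusted p = 0.0688) or 3 (0.104) and with a pseudocount of 10. Hspa1a at 96 h had 0.289, 0.443 and 0.465 FPKM and did not pass (0.37, adjusted p = 0.296). Hspa8 rose at 6 h alone, to 649, 403 and 489 FPKM (0.67, adjusted p = 0.00622), and lost the call without replicate 2 (adjusted p = 0.073). Dnajb1 and Hsp90aa1 passed at no time in the fit without a block, and with it Dnajb1 was lower at 2 h (-0.28, adjusted p = 0.0485). Of 80 pairs of a gene and a time, 29 were higher in M2 than in 0 h M0, against 18.6% over all genes, and none was lower in limma, against 14%, with 1 lower at an unadjusted p below 0.05 and 2 by limma after quantile normalization.

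Base medium without cytokines was read from bulk M0 cells at 24, 48 and 96 h. Between 0 and 24 h no bulk M0 cells were collected, so the results at 1 to 12 h have no M0 of the same hour. The part of time in culture in those results was not tested. In M0 cells at 24, 48 and 96 h, none of 30 pairs passed limma in either direction against 0 h M0, against 3.9% higher and 4.09% lower over all genes, with none higher and 3 lower at an unadjusted p below 0.05, and none with the replicate block. Set against M0 of the same hour, 16 of 30 pairs were higher in M2 and none was lower (17.2% and 13.4% over all genes, and none lower at an unadjusted p below 0.05 or with the block). These were Hsph1, Hspa5, Hsp90b1, Pdia4 and Calr at 24, 48 and 96 h and Hspa1b at 96 h (1.11), Pdia4 by 2.23 at 24 h and Hsph1 by 1.74 at 96 h. The same libraries gave 3 higher and 8 lower pairs in M1 (32.8% and 23.8% over all genes). Of all genes called in M1 against M0 of the same hour 58.0% were higher, and 45.8% after the same-median shift or 46.9% after quantile normalization. The higher ones were Hspa5, Calr (0.69) and Dnajb1 (0.34) at 24 h, and the lower ones were the 4 ER members and Hspa8 at 48 h and Hspa5, Hsp90b1 and Calr at 96 h. Hspa5 in 24 h M1 stood at 454, 446 and 437 FPKM, against 197, 247 and 278 in 24 h M0 (0.90 ± 0.15), with no overlap, and in 96 h M1 below 96 h M0 (-1.09 ± 0.14). The 24 h call of Dnajb1 in M1 was lost without replicate 2 (adjusted p = 0.131) or 3 (0.234), with the same-median shift (0.134), after quantile normalization (0.0668) and in a fit of its own libraries (0.103), and that of Calr after quantile normalization (0.248). The 48 h M1 call of Hspa5 was lost without replicate 3 (adjusted p = 0.0571) and that of Calr without replicate 1 (adjusted p = 0.0578) and in a fit of its own libraries (0.0516). In M2 the 96 h call of Hspa1b was lost with a pseudocount of 10 (adjusted p = 0.314) and without replicate 2 (0.141) or 3 (0.173). The 48 h call of Hspa5 was lost after quantile normalization (adjusted p = 0.142), in a fit of its own libraries (0.0712) and without replicate 1 (0.112) or 3 (0.0553), that of Calr without replicate 2 (adjusted p = 0.075), and the 96 h calls of Hspa5 and Calr after quantile normalization (0.543 and 0.259).

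Set directly against M2 of the same hour, M1 cells had 15 higher and 29 lower pairs of 80 (28% and 24.2% over all genes, of which 53.6% of the called were higher, and 42.7% after quantile normalization). The lower pairs were led by Pdia4, with 18.3, 34.4 and 36.4 FPKM in 6 h M1, against 179, 283 and 319 in 6 h M2 (log2 difference -3.11 ± 0.29, adjusted p = 1.27e-17), and Hsph1, with 8.1, 8.32 and 12 FPKM in 4 h M1, against 52.3, 62.9 and 72 in 4 h M2 (log2 difference -2.61 ± 0.19, adjusted p = 1.87e-23). Both genes were lower in M1 at every time from 2 to 96 h, and their libraries did not overlap at these times. The higher pairs were at 2 to 12 h and of Hspa1a, Hspa1b, Dnajb1, Hsp90aa1, Hspa8 and Hspa5, Hspa1b by 3.77 and Hspa8 by 1.71 at 12 h, while the called differences of Hspa8 at 4 and 6 h (0.47 and 0.56) turned to -0.26 each after quantile normalization. At 48 and 96 h all 4 ER members were lower in M1, Hsp90b1 most at 48 h, with 119.9, 126 and 115 FPKM, against 572, 522 and 572 in 48 h M2 (-2.20). Of the higher calls, those of Hspa8 at 4 and 6 h were lost without replicate 2 (adjusted p = 0.162) or 3 (0.251) and without replicate 2 (0.174) or 3 (0.401), that of Hspa1a at 2 h without replicate 2 (adjusted p = 0.0955) or 3 (0.0911) and that of Dnajb1 at 4 h without replicate 3 (adjusted p = 0.0529). Of the lower calls, those of Hsp90b1 at 6 and 12 h were lost without replicate 1 (adjusted p = 0.0579) and without replicate 2 (0.0763), of Calr at 12 h without replicate 2 (adjusted p = 0.103) or 3 (0.0542), of Hspa5 at 24 h without replicate 2 (adjusted p = 0.102) or 3 (0.215), and of Hspa1b and Hspa8 at 96 h without replicate 2 (adjusted p = 0.178) or 3 (0.437) and without replicate 1 (0.0753) or 3 (0.0638). In the fit with replicate number as a block M1 was also lower in Hsp90b1 at 4 h (-0.28, adjusted p = 0.0406), Calr at 6 h (-0.37, adjusted p = 0.027) and Hspa8 at 24 h (-0.45, adjusted p = 0.0278), and higher in Dnajb1 at 24 h (0.26, adjusted p = 0.033).

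When M1 cytokines were washed out, Hspa8 was lower from 28 to 48 h, and with replicate number as a block already at 26 h (-0.62, adjusted p = 0.0342), but did not pass at 96 h. It had 101, 154 and 153 FPKM at 28 h, 60.4, 88.2 and 76 at 36 h and 218, 274 and 252 at 96 h M1→M0, against 174, 302 and 276 in 24 h M1 (36 h: log2 difference -1.71 ± 0.21, adjusted p = 3.26e-11). The 36 h libraries all lay below those of 24 h M1 and, among all conditions, 36 h M1→M0 had the lowest mean of Hspa8, 74.8 ± 13.9 FPKM (SD, n = 3). At 96 h its log2 difference from 24 h M1 was 0.02 (adjusted p = 0.948). Hsph1 rose at 30 h, to 38.5, 37 and 34.8 FPKM, against 21.9, 21.7 and 26.1 in 24 h M1 (log2 difference 0.64 ± 0.19, adjusted p = 0.00529), without overlap, and with replicate number as a block also at 36 h (0.44, adjusted p = 0.0468). Hsp90aa1 was higher at 96 h, with 99.5, 113 and 121 FPKM, against 58, 60.4 and 58 in 24 h M1 (log2 difference 0.90 ± 0.30, adjusted p = 0.0063). The Hsph1 call was lost without replicate 2 (0.59, adjusted p = 0.102) and the Hsp90aa1 call without replicate 3 (0.83, adjusted p = 0.104). The ER members had their low point at 48 h, with log2 differences of -1.11 for Hspa5, -0.87 for Hsp90b1, -0.97 for Calr and -0.80 for Pdia4. Of 70 pairs 2 were higher and 13 lower than in 24 h M1, against 13% and 14.9% over all genes. Of all genes called 46.6% were higher, and 58.5% after quantile normalization, which also turned the values of Hsp90b1 at 36 h (to 0.04) and 96 h (to 0.31) and of Hspa5 at 36 h (to 0.02). The 28 h call of Hspa8 was lost without replicate 3 (adjusted p = 0.055) and in a fit of its own libraries (0.0672). At 36 h the calls of Hspa5 and Hsp90b1 were lost without replicate 3 (adjusted p = 0.124) and without replicate 2 (0.122) or 3 (0.278). At 48 h those of Pdia4 and Dnajb1 were lost without replicate 2 (adjusted p = 0.129) or 3 (0.241) and without replicate 2 (0.195) or 3 (0.231), and that of Calr after quantile normalization (adjusted p = 0.0945), which also ended those of Hspa5 and Calr at 96 h (0.211 and 0.511). With the block Pdia4 was also lower at 28 h (-0.50, adjusted p = 0.0454), 36 h (-0.50, adjusted p = 0.0283) and 96 h (-0.48, adjusted p = 0.027), and Dnajb1 at 36 h (-0.31, adjusted p = 0.0149).

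Cells kept in M1 cytokines had moved too, so the washout was also set against them. In M1 kept to 48 and 96 h, 9 of 20 pairs were lower than in 24 h M1 and none higher by limma (18.3% and 14.4% over all genes, of which 44.1% of the called were higher, and 55.7% after quantile normalization), with none higher at an unadjusted p below 0.05. These were the 4 ER members at both times and Hspa8 at 48 h. At 96 h Hspa5, Hsp90b1 and Calr were higher in washed than in kept cells. Hspa5 had 259, 291 and 253 FPKM in 96 h M1→M0, against 144, 159.9 and 129.6 in 96 h M1 (log2 difference 0.89 ± 0.15, adjusted p = 6.81e-07). Hsp90b1 had 189, 243 and 220.0 FPKM, against 104, 122 and 128 (log2 difference 0.88 ± 0.13, adjusted p = 8.85e-09), and Calr had 448, 468 and 419.6 FPKM, against 233, 344 and 287 in 96 h M1 (log2 difference 0.64 ± 0.18, adjusted p = 0.0028). None of these libraries overlapped. Against 96 h M0 in base medium, Hsp90aa1 alone of the 10 genes passed in 96 h M1→M0, with 99.5, 113 and 121 FPKM, against 79.4, 58.9, 48.9 and 56.7 in 96 h M0 (log2 difference 0.87 ± 0.28, adjusted p = 0.0161). Every washed library was above every M0 library, and the call was lost without replicate 3 (0.71, adjusted p = 0.325). The share of all genes called in 96 h M1→M0 against M0 alone is not given here, so the lack of other calls does not set the members apart. In cells kept in M1 cytokines the calls of Pdia4 at 48 and 96 h were lost without replicate 2 (adjusted p = 0.0695) or 3 (0.125) and without replicate 2 (0.128) or 3 (0.143). In the fit with the block Hsp90aa1 was also higher in washed than in kept cells at 96 h (0.64, adjusted p = 0.0428).

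When IL-4 was washed out, Pdia4 fell first. It had 78.1, 117 and 113 FPKM at 28 h and 34, 41.4 and 35.9 at 96 h M2→M0, against 127, 232 and 272 in 24 h M2 (log2 differences -0.98 and -2.41, adjusted p = 3.13e-11 at 96 h). Hsp90b1 was lower from 30 h, Hspa5 and Calr from 36 h and Hsph1 from 48 h. Hsph1 held 48.8, 58.5 and 47.7 FPKM at 36 h and had 28.7, 36.3 and 28.5 at 48 h, against 54.3, 53 and 65.3 in 24 h M2 (48 h: log2 difference -0.87 ± 0.19, adjusted p = 0.000357). At 96 h all 5 genes were lower than in 24 h M2 with no overlap, Hspa5 by -1.10, Hsp90b1 by -1.14, Calr by -1.20 and Hsph1 by -0.96. Of 70 pairs 17 were lower and none higher by limma, against 6.8% and 6.22% over all genes, with none higher at an unadjusted p below 0.05 or with the block. The Pdia4 calls at 28 and 30 h were lost without replicate 2 (adjusted p = 0.173 and 0.0847) or 3 (0.415 and 0.33), and without replicate 3 also that at 36 h (0.083) and those of Hspa5, Hsp90b1 and Calr before 48 h (0.285 to 0.557) and of Calr at 48 h (0.0594).

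The washed M2 cells were also set against M0 cells. None of the 20 pairs of M2→M0 at 48 and 96 h passed limma against M0 of the same hour, with 2 higher and none lower at an unadjusted p below 0.05, and the log2 differences ran from -0.18 to 0.58. The share of all genes called in M2→M0 against M0 alone is not given here, so the lack of calls does not set the members apart. Hsph1 was the farthest, at 0.58 ± 0.21 (adjusted p = 0.203) and 0.52 ± 0.18 (adjusted p = 0.316). Against M2 kept in IL-4, Hsph1, Hspa5, Hsp90b1, Pdia4 and Calr were lower at 48 and at 96 h, Pdia4 with 34, 41.4 and 35.9 FPKM in 96 h M2→M0, against 162, 154 and 129 in 96 h M2 (log2 difference -1.97 ± 0.29, adjusted p = 2.19e-08). Over both washouts, 3 of 40 pairs were higher and 11 lower than in cells kept in cytokines (11.6% and 14.2% over all genes), and 2 higher and 5 lower than in M0 (8.86% and 5.88% over all genes). In the comparison with M0, 60.1% of all called genes were higher, and 47.8% after the same-median shift. The 7 pairs that differed from M0 were all of M1→M0, 6 of them at 48 h, among them Hspa8 with 61.8, 96.3 and 73.4 FPKM in 48 h M1→M0, against 235 and 238 in 48 h M0 (-1.63 ± 0.24). The calls against kept cells were lost for Hspa5 at 48 h M2→M0 without replicate 1 (adjusted p = 0.131) or 3 (0.177), for Calr at 48 and 96 h M2→M0 without replicate 2 (adjusted p = 0.111) or 3 (0.142) and without replicate 2 (0.0536), and for Hspa8 at 48 h M1→M0 without replicate 3 (adjusted p = 0.116). Those of 48 h M1→M0 against M0 were lost for Hsph1 without replicate 1 (adjusted p = 0.113) or 2 (0.249), Hspa5 without replicate 2 (adjusted p = 0.066), Pdia4 without replicate 2 (adjusted p = 0.138) or 3 (0.116) and Calr without replicate 1 (adjusted p = 0.113) or 2 (0.116).

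**Figure D2:**
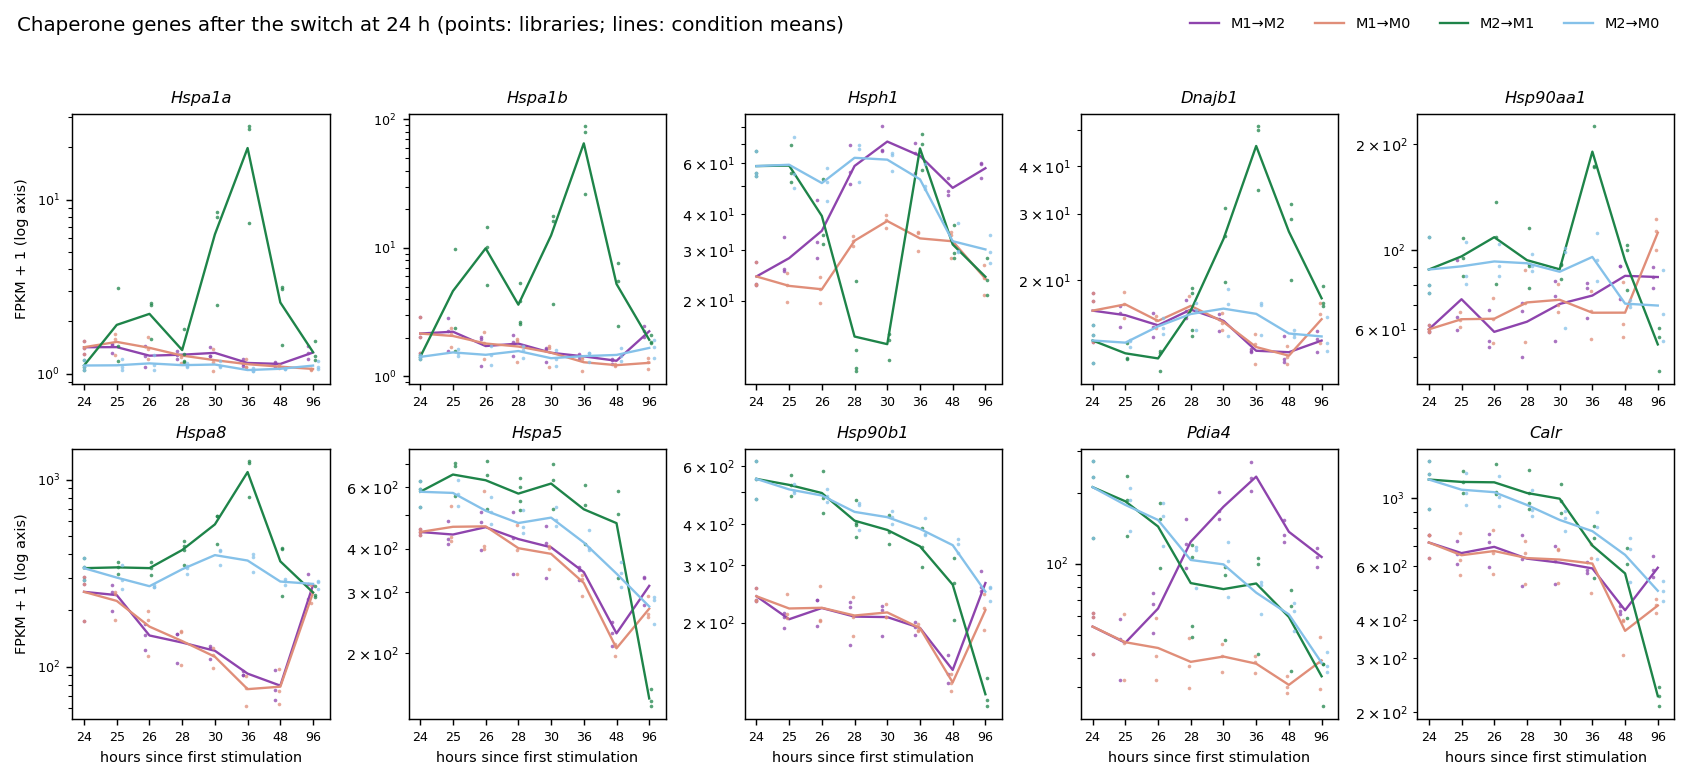
Levels of the 10 genes (FPKM + 1, log axis) from 24 to 96 h (times evenly spaced) in the 4 switched arms, M1→M2, M1→M0, M2→M1 and M2→M0; points are libraries and lines join the means. Pdia4 reached 202 to 268 FPKM in 36 h M1→M2, against 33.6 to 39.5 in 36 h M1→M0, and Hspa1b 25.1 to 88.2 FPKM in 36 h M2→M1, against 0.289 to 0.519 in 36 h M2→M0.

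In M1 cells given IL-4, Hsph1 and Pdia4 were the members that differed from washed M1 cells. Both were higher at 28, 30, 36, 48 and 96 h, which made 10 of 70 pairs, against 4.97% of all genes, and no pair was lower by limma (3.14% of all genes), with none lower at an unadjusted p below 0.05 and 1 in fits of the libraries of each comparison alone. Pdia4 had 229.8, 268 and 202 FPKM in 36 h M1→M2, against 37.2, 39.5 and 33.6 in 36 h M1→M0 (log2 difference 2.63 ± 0.29, adjusted p = 1.34e-12). Hsph1 had 79.7, 65.2 and 65.6 FPKM in 30 h M1→M2, against 38.5, 37 and 34.8 in 30 h M1→M0 (log2 difference 0.91 ± 0.19, adjusted p = 0.000194). Libraries did not overlap in either gene at any of the 5 times. The 96 h difference was 1.28 ± 0.19 in Hsph1 and 1.48 ± 0.29 in Pdia4. Hspa5, Hsp90b1 and Calr, which were higher in M2 than in 0 h M0, had log2 differences of -0.11 to 0.41 at all 7 times and did not pass, apart from Calr at 96 h with replicate number as a block (0.41, adjusted p = 0.0439). The Hsph1 call at 48 h (0.62 ± 0.19) was lost without any 1 replicate (adjusted p = 0.0557 to 0.156), and with the block Hsph1 also passed at 26 h (0.65, adjusted p = 0.046).

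In M2 cells given IFN-γ and LPS, the cytosolic members peaked again 12 h after the cytokines, at 36 h. Hspa1a had 6.37, 25.6 and 24.5 FPKM in 36 h M2→M1, against 0.0381, 0.0362 and 0.0831 in 36 h M2→M0 (log2 difference 4.02, with no test since these libraries brought it into the matrix). Hspa1b had 25.1, 79.2 and 88.2 FPKM, against 0.289, 0.511 and 0.519 in 36 h M2→M0 (log2 difference 5.31 ± 0.40, adjusted p = 5.42e-23). Its 36 h M2→M1 libraries too are among those that brought it into the matrix, so this p-value is no independent support. Replicate 1 was the lowest of the 3 in both genes at 36 h M2→M1 and still lay far above the washed cells. Hspa8 had 805, 1231 and 1263 FPKM, against 319, 401 and 387 (1.55 ± 0.21). Dnajb1 had 33.7, 49 and 50.2 FPKM, against 13.3, 16.3 and 16.4 (1.46 ± 0.14), and Hsp90aa1 173, 171 and 224 FPKM, against 80.7, 93.1 and 111 in 36 h M2→M0 (0.99 ± 0.30). None of these ranges met. The call of Hsp90aa1 was lost after quantile normalization (0.28, adjusted p = 0.384). Beside Hspa1a, whose values are a description here, the other 5 cytosolic members were higher at 36 h than at 30 h M2→M1 (22% of all genes) and lower at 48 h than at 36 h (19.8% of all genes), Hspa1b by 2.49 ± 0.40 and -3.60 ± 0.40. The steps of Hsp90aa1 into and out of 36 h were lost without replicate 3 (adjusted p = 0.0716 and 0.0939).

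Hsph1 again fell before it peaked. It had 10.7, 12.5, 22.5 and 10.4 FPKM in the 4 libraries of 28 h M2→M1, against 66, 68 and 50.6 in 28 h M2→M0 (log2 difference -2.11 ± 0.18, adjusted p = 1.21e-19), and 11.5, 14.3 and 13.6 in 30 h M2→M1, against 62.8, 63.9 and 55.2 in 30 h M2→M0 (-2.13 ± 0.19). Replicate 3 of 28 h M2→M1 was the highest of the 4 and still under the washed cells. At 36 h Hsph1 did not pass the test between the arms (0.35, adjusted p = 0.0981). At 96 h Hspa5, Hsp90b1 and Calr were lower in M2→M1, Hspa5 with 139.7, 157 and 144.6 FPKM, against 289.9, 284 and 241 in 96 h M2→M0 (-0.88 ± 0.15), Hsp90b1 by -1.04 and Calr by -1.14, while Pdia4 passed at no time. Of 70 pairs 17 were higher and 6 lower in M2→M1, against 26% and 20.3% over all genes, and without Hspa1a at 36 h 16 of 69 were higher. Of all called genes 56.2% were higher, and 44.0% after the same-median shift or 39.7% after quantile normalization. Quantile normalization also turned the direction of the small differences of Hspa5 at 28, 30, 36 and 48 h (to between -0.52 and -0.15), of Hspa8 at 28 and 30 h (-0.35 and -0.32) and of Calr at 28 and 30 h (-0.44 and -0.55), of which the ones called had been Hspa8 at 30 h (0.53) and Hspa5 at 48 h (0.45). The calls of Hspa8 at 30 h and Hspa5 at 48 h were lost without replicate 2 (adjusted p = 0.132) or 3 (0.15) and without replicate 2 (0.149) or 3 (0.128), those of Hspa1a at 26 h and Hspa1b at 28 h without replicate 2 (adjusted p = 0.0505) or 3 (0.192) and without replicate 3 (0.0859), and those of Hsp90b1 at 48 h and Dnajb1 at 96 h without replicate 1 (adjusted p = 0.0542) and without replicate 1 (0.0749), 2 (0.0673) or 3 (0.221). In the block fit Dnajb1 was also lower at 26 h (-0.28, adjusted p = 0.0421) and Hspa5 higher at 30 h (0.32, adjusted p = 0.0355) and 36 h (0.30, adjusted p = 0.0458).

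**Figure D3:**
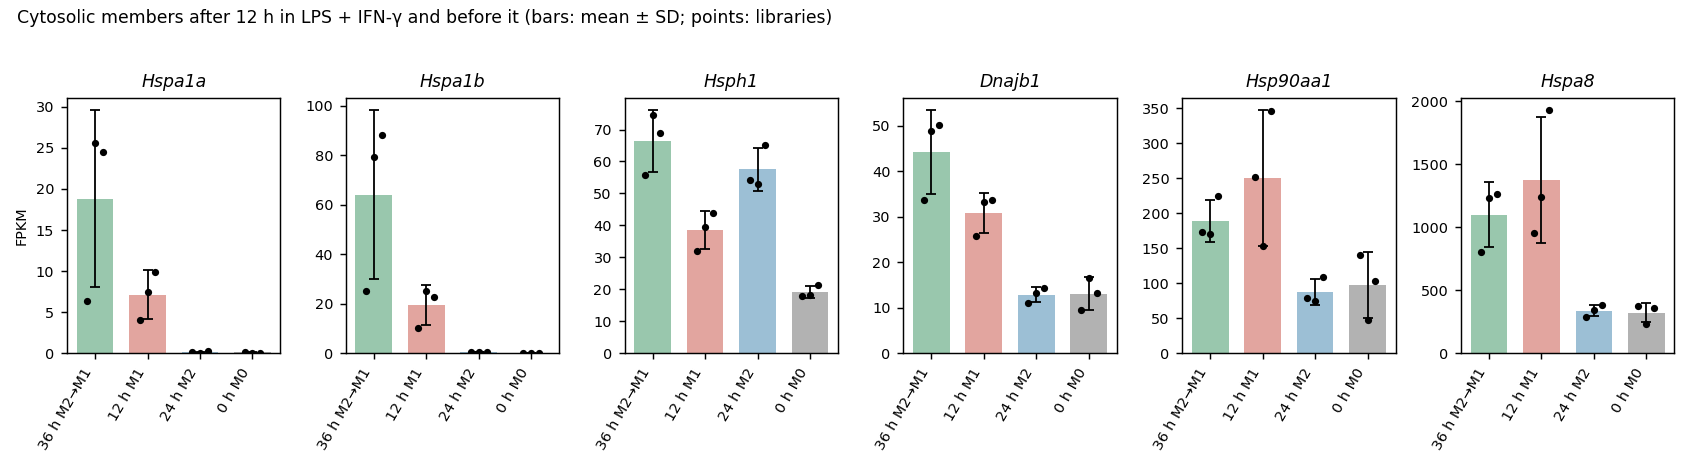
Levels of the 6 cytosolic genes (FPKM, linear axis from 0) in 36 h M2→M1, 12 h M1, 24 h M2 and 0 h M0; bars are means, error bars the SD over 3 libraries, and points the libraries. Hspa1b averaged 64.1 FPKM in 36 h M2→M1 and 19.5 in 12 h M1, with 1 library of 36 h M2→M1 (25.1) no higher than the highest of 12 h M1 (25.2).

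Levels after 12 h in IFN-γ and LPS, with 24 h of IL-4 before and without it, could be set side by side. Hsph1 had 55.7, 74.6 and 68.8 FPKM in 36 h M2→M1, against 32.1, 39.6 and 44 in 12 h M1 (log2 difference 0.77 ± 0.19, adjusted p = 0.00125), and Dnajb1 33.7, 49 and 50.2 FPKM, against 25.7, 33.2 and 33.6 in 12 h M1 (log2 difference 0.50 ± 0.14, adjusted p = 0.00627). In both genes every 36 h M2→M1 library lay above every 12 h M1 library, by a small margin in Dnajb1. Hspa1b was higher as well (1.57, adjusted p = 0.00152), and the value of Hspa1a, with no test, was 1.14, but replicate 1 of 36 h M2→M1 lay inside the range of 12 h M1 in both. Without replicate 2 the calls of Hspa1b, Hsph1 and Dnajb1 were lost (adjusted p = 0.0554, 0.062 and 0.115), and without replicate 3 those of Hspa1b and Dnajb1 (0.137 and 0.168). Hsp90aa1 and Hspa8 did not pass (-0.34, adjusted p = 0.462 and -0.29, adjusted p = 0.357). These are levels and not changes, and Hsph1 was already higher in 24 h M2 than in 0 h M0. Its change over the 12 h was 0.20 after IL-4, against 0.97 without it (limma difference -0.77, adjusted p = 0.0415). That call was lost without any 1 replicate.

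After IL-4 the ER members were higher at the start of the M1 cytokines and no longer passed after 24 h of them. In 25 h M2→M1, 1 h after the switch, Pdia4 had 130.4, 234 and 185 FPKM, against 39.7, 46.9 and 52.1 in 1 h M1 (log2 difference 1.93 ± 0.29, adjusted p = 3.05e-08). Hsp90b1 had 525, 565 and 487 FPKM, against 296, 260.2 and 306 (0.87 ± 0.13), and Calr 1132, 1224 and 1037 FPKM, against 640.0, 511 and 670.3 in 1 h M1 (0.90 ± 0.18). None of these libraries overlapped. At 24 h after the cytokines the log2 differences of Pdia4, Hsp90b1 and Calr were 0.08, 0.10 and -0.37, and none passed. At that time Hspa1a, Hspa1b and Dnajb1 were higher (0.77, 1.18 and 0.68), and all 3 calls were lost without replicate 3 (adjusted p = 0.528, 0.567 and 0.0957), and those of Hspa1a and Hspa1b also without replicate 2 (0.403 and 0.17). Over all 6 times, from 1 to 24 h in the cytokines, 24 of 60 pairs were higher in M2→M1 than in M1 and 1 was lower (13.7% and 12.1% over all genes), and 23 of 59 were higher without Hspa1a at 12 h. The lower one was Dnajb1 at 1 h (-0.42, adjusted p = 0.0136), which was lost without replicate 2 (adjusted p = 0.138) or 3 (0.143). Hspa8 was also higher after 24 h with the replicate block (0.53, adjusted p = 0.0265).

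A difference of responses takes the level before the cytokines into account: M2→M1 minus 24 h M2, set against M1 minus 0 h M0. M2→M1 cells also lost IL-4 at the switch, so this difference holds the IL-4 removal as well as the M1 cytokines. In this test 14 of 60 pairs had a lower response after IL-4 and 2 a higher one, against 5.62% and 4.32% over all genes, and without Hspa1a at 12 h 1 of 59 was higher. The lower ones were of Hsph1 and the ER members. Hsph1 changed by -2.05 at 6 h after IL-4, against -0.48 without it (difference -1.56, adjusted p = 7.46e-06). Hspa5 changed by 0.07 at 6 h after IL-4, against 1.04 without it (difference -0.97, adjusted p = 0.000737). That higher response was Dnajb1 at 24 h (0.68, adjusted p = 0.00948), lost without replicate 2 (adjusted p = 0.235) or 3 (0.196). For Hspa1a at 12 h the difference was 1.10, a description only. With replicate number as a block the 12 h difference also passed for Dnajb1 (0.50, adjusted p = 0.015), Pdia4 (-1.02, adjusted p = 0.00439) and Calr (-0.64, adjusted p = 0.0273), and that of Pdia4 at 4 and 6 h too (adjusted p = 0.012 and 0.0392). The 4 h difference holds 28 h M2→M1, whose numbers did not pair with those of 4 h M1 (lowest correlation -0.426). The lower differences were lost for Hspa5 at 2 h without replicate 2 (adjusted p = 0.146) or 3 (0.678), at 6 h without replicate 3 (adjusted p = 0.0955) and at 12 h without replicate 3 (adjusted p = 0.126), for Hsp90b1 at 6 and 12 h without replicate 2 (adjusted p = 0.18) or 3 (0.583) and without replicate 3 (0.125), and for Hsph1 at 4 and 12 h without replicate 2 (adjusted p = 0.0591) and without replicate 1 (0.0746), 2 (0.196) or 3 (0.232).

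The end states of switched cells were compared with cells kept in the same cytokines, another comparison added after the values were seen. At 96 h no member passed limma between M2→M1 and M1, nor at an unadjusted p below 0.05, with log2 differences of -0.41 to 0.27. For this comparison alone the share of all genes called is not given here, so the lack of calls does not set the members apart. At 48 h 8 members were higher in M2→M1 than in M1 (24.6% of all genes), Hspa8 with 239, 424 and 432 FPKM in 48 h M2→M1, against 107, 147 and 129.7 in 48 h M1 (log2 difference 1.47 ± 0.21, adjusted p = 7.71e-09), which compares 24 h with 48 h of the cytokines. In M1→M2 cells at 48 h Hspa8, Hspa5, Hsp90b1 and Calr were lower than in M2 cells (-1.79, -1.06, -1.96 and -1.20). At 96 h Hspa5 and Hsp90b1 still were, Hsp90b1 with 256, 286 and 248 FPKM in 96 h M1→M2, against 598, 399.8 and 352 in 96 h M2 (log2 difference -0.74 ± 0.13, adjusted p = 2.57e-06), without overlap. Pdia4 and Hsph1 did not pass at either time. In all, 8 of 40 pairs were higher and 6 lower (18.8% and 13.4% over all genes). The Hspa5 call at 96 h was lost without replicate 1 (-0.36, adjusted p = 0.057), while Calr joined it with the block (-0.44, adjusted p = 0.0235). At 48 h the calls between M2→M1 and M1 were lost for Hspa1a and Hspa1b without replicate 2 (adjusted p = 0.144) or 3 (0.184) and without replicate 2 (0.0622) or 3 (0.197) and for Pdia4 without replicate 2 (adjusted p = 0.0519) or 3 (0.0795), and Hsp90aa1 joined with the block (0.63, adjusted p = 0.0471).

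Other genes of the same pathways were read from 5 lists that do not hold the 10 members, each at the time with most calls over all genes. Of 27 other cytosolic chaperones and HSF1 targets in the matrix, 14 were higher and 6 lower in 6 h M1 than in 0 h M0 (38.4% and 28.9% of all genes, median log2 difference 0.45, against 0.11 over all genes). Dnaja2 and Dnaja1, J-domain partners of Hsp70, rose by 2.11 and 1.68. Of 8 subunits of TRiC, the chaperonin that folds actin and tubulin, 7 rose (median 0.49), Cct3 by 1.01. Of 26 other ER chaperones and folding enzymes 5 were higher and 5 lower (median 0.08), with Manf, a secreted ER stress protein, at 0.81 and the disulfide isomerase relative Erp29 at -1.46. Of 22 ER stress factors and genes of ER-associated degradation 11 rose and 4 fell (median 0.27). Ppp1r15b and Ppp1r15a, which help reverse the block of translation under ER stress, rose by 2.74 and 1.5, and Herpud1, a part of the degradation machinery, fell by 1.14. Of 11 mitochondrial chaperones and proteases 2 rose and 5 fell, Hscb, an iron-sulfur cochaperone, by 1.85.

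In 6 h M2 25.6% of all genes were higher and 19% lower than in 0 h M0. All 8 TRiC subunits rose (median 0.87, against 0.05 over all genes), as did 13 of 26 ER chaperones (median 0.35), with Hyou1, an Hsp110 relative of the ER, at 1.28 and Txndc5, a disulfide isomerase, at 1.06. Of the mitochondrial list 7 of 11 rose, led by the Hsp60 gene Hspd1 at 1.33 and its partner Hspe1 at 0.98. Of 27 cytosolic genes 14 rose and 2 fell, and of 22 stress genes 5 rose and 6 fell, Ppp1r15a by 1.5 and Chac1, a target of the PERK arm, by 1.18. At 96 h after the start, with IL-4 washed out for 72 h, 20 of 26 ER chaperones were lower than in 24 h M2 and none higher by limma (median -0.60, against -0.01 over all genes, of which 18.4% were lower and 15.7% higher), led by Sdf2l1, a BiP cochaperone (-1.55), Creld2 (-1.48) and the disulfide isomerase Pdia6 (-1.40).

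In 36 h M2→M1 16 of 22 ER stress genes were higher than in 36 h M2→M0 and 1 lower (median 0.51, against 0.08 over all genes, of which 36.8% were higher and 27.8% lower). The largest differences were of targets of ATF4, the factor of the PERK arm of the ER stress response: Trib3 (2.81), Chac1 (2.34), Ppp1r15a (2.25) and Ddit3, which encodes CHOP (2.22). Of the 26 ER chaperones 4 were higher and 8 lower (median -0.14). Dnaja1 (2.15) and Hspa4l, an Hsp110 gene (2.04), led the 11 cytosolic genes that were higher, while 8 were lower, Fkbp5 by 1.32. Right after that switch, in 25 h M2→M1 against 1 h M1, 14 of 26 ER chaperones and all 8 TRiC subunits were higher (19.9% of all genes, and 17.3% lower), Sdf2l1 by 1.64. In 96 h M1→M0 13 of 22 stress genes were lower than in 24 h M1 and none higher, Atf4 itself by 1.29, and of 26 ER chaperones 6 were higher and 10 lower (25% and 32.1% of all genes). Between M1→M2 and M1→M0 at 96 h, where 8.46% of all genes were higher and 8.45% lower, the lists held few calls: 2 higher and 1 lower of 26 ER chaperones, the same of 22 stress genes, 2 higher of 11 mitochondrial genes, 1 higher of 8 TRiC subunits and 1 lower of 27 cytosolic genes.

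Likeness of profile was measured over the 48 condition means, whose conditions share libraries of one culture scheme, as a description with no test. The mean standardized profile of Hspa1a, Hspa1b, Hsph1 and Dnajb1 was matched best among 8297 other genes by Gm20481 (Pearson r = 0.930), the gene antisense to Hspa1a, then by Gm7816 (0.881), Dtnb (0.877), Dnaja1 (0.872) and Fgfbp3 (0.843). Gm20481 takes reads that cannot be told apart from those of Hspa1a, as given above. Within the averaged profile Hsph1 stood apart from the other 3 genes, with r of -0.10, -0.15 and -0.15 with Hspa1a, Hspa1b and Dnajb1, while these 3 had 0.75 to 0.95 among themselves, so the average is not a pattern that all 4 shared. The member most like Hsph1 was Pdia4 (r = 0.76). The profile of the 4 ER members was matched best by Pdia6 (0.967), Creld2 (0.936), Oxct1 (0.908), Capzb (0.901) and Canx (0.887). Pdia6, Creld2 and Canx, the gene of the lectin chaperone calnexin, are ER proteins.

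Open chromatin near the starts was measured by ATAC-seq, in which a transposase cuts accessible DNA, in 96 h M1→M0, 24 h M1 and 0 h M0 (3 libraries each, with 1730488 to 9354620 counts in sites). Of 150203 sites 137586 had more than 10 counts in at least 1 library and were tested. All 10 genes had a site within 500 bp of an annotated start, 13 sites in all. Most sites changed little. In 24 h M1 3 of 13 sites were higher than in 0 h M0, against 16.4% of all sites, and none lower by edgeR (13.8%), also at an unadjusted p below 0.05 and by DESeq2. The clearest was at Hsph1 (mm10 chr5:149619020-149619769), with 26.7, 26.6 and 19.7 CPM (counts scaled to library size) in 24 h M1, against 7.49, 8.26 and 7.23 in 0 h M0 (log2 difference 1.74, edgeR adjusted p = 4.36e-15). It had 15.3, 16.0 and 18.4 CPM in 96 h M1→M0, between the other groups and overlapping neither (against 0 h M0 1.12, adjusted p = 6.1e-08, and against 24 h M1 -0.62, adjusted p = 0.00053). This 750 bp site does not lie at the main promoter but 16982 bp inside the gene, near the start of a retained-intron transcript, and holds 154 exonic bases. The sites of Hspa1a (chr17:34971684-34972824) and Calr (chr8:84846258-84848387) were higher by 0.33 each (adjusted p = 0.0439 and 0.0425), calls that DESeq2 did not make (adjusted p = 0.166 and 0.112) and that were lost without replicate 1 (0.315 and 0.345) or 3 (0.156 and 0.366).

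Against 24 h M1, 6 of 13 sites were lower in 96 h M1→M0 (11.6% of all sites) and none higher (9.93% of all sites, and none at an unadjusted p below 0.05 or by DESeq2), with a median over the 13 sites of -0.34 against 0.04 over all sites. The site over the Hspa1a start had 23.0, 25.0 and 27.3 CPM in 96 h M1→M0, against 36.4, 34.3 and 34.7 in 24 h M1 (-0.48, adjusted p = 0.0042). The site over the Hspa5 start (chr2:34771107-34772724) had 35.6, 37.8 and 34.3 CPM in 96 h M1→M0, 51.2, 47.6 and 59.6 in 24 h M1 and 46.6, 54.9 and 43.2 in 0 h M0, so that the washed cells lay below both (adjusted p = 0.00189 and 0.0104). The others were the sites of Hspa1b (-0.38), Hsph1 above, Hspa8 (-0.43) and Calr (-0.57). Leaving out replicate 1, whose 24 h M1 library held 3399222 counts, left 1 of these 6 calls (Calr), and leaving out replicate 3, whose 24 h M1 library held 1730488 counts, left 2 (Hspa1a and Hsph1). Against 0 h M0 1 site was higher in 96 h M1→M0 (Hsph1, above) and 2 were lower, at Hspa5 (-0.42) and Hsp90aa1 (-0.35, adjusted p = 0.033), against 10.0% and 8.14% of all sites, and without replicate 1 or 3 neither of the lower calls held (adjusted p = 0.0643 to 0.214).

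**Figure D4:**
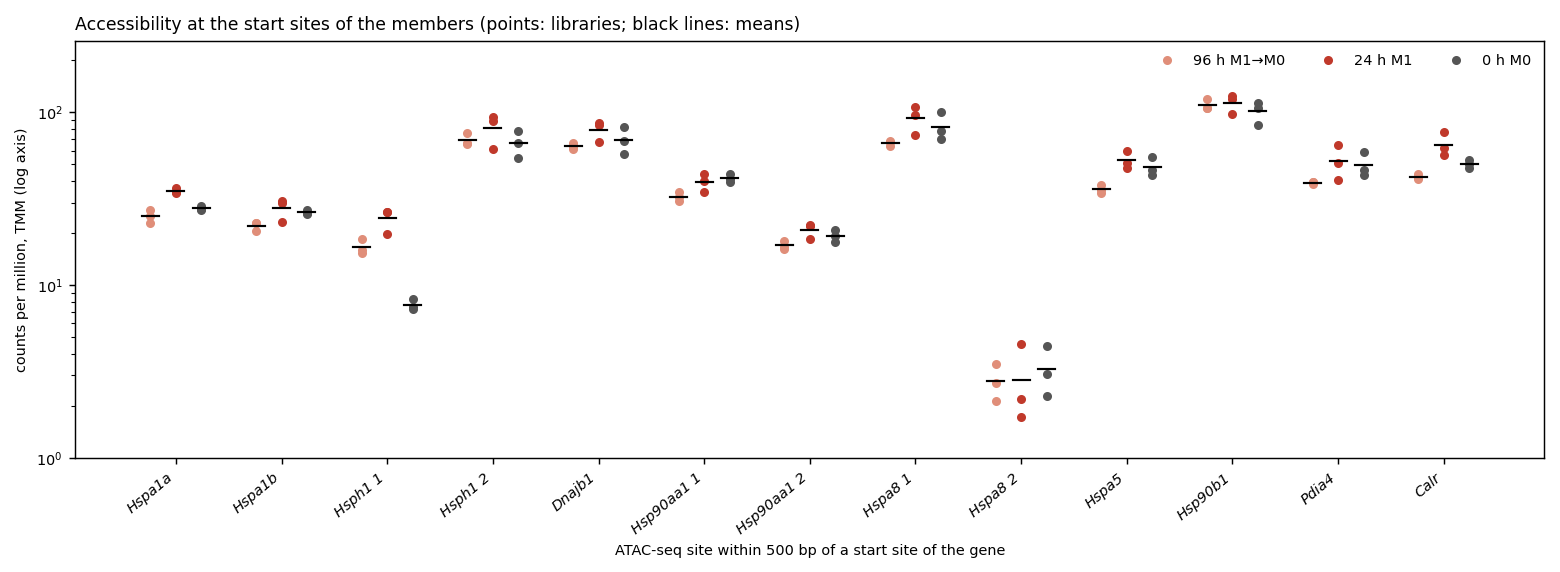
ATAC-seq CPM (counts scaled to library size with TMM factors) at the 13 sites within 500 bp of a start of the 10 genes, in 96 h M1→M0, 24 h M1 and 0 h M0; each point is a library. The first of the Hsph1 sites is the one inside the gene, with 15.3 to 18.4 in 96 h M1→M0, 19.7 to 26.7 in 24 h M1 and 7.23 to 8.26 in 0 h M0.

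Single-cell RNA-seq gave the same genes in cells taken off the dish with cold Versene and scraping, whereas bulk RNA was lysed in the dish. There was 1 library per condition, with 5725353 to 8761151 unique molecular identifiers (UMIs, each counting 1 captured transcript) in 2446 to 5985 barcodes, so no condition was tested, and the intervals are exact Poisson 95% intervals that cover counting error only. Pairs of libraries shared 6 to 25 barcodes. Pdia4 had 111 (95% interval 104 to 118) CPM (UMIs scaled to the library total) in 6 h M2, 18.9 (95% interval 16.2 to 22.1) in 6 h M1 and 40.4 (95% interval 35.4 to 45.8) in 6 h M0, and 136, 27 and 41.6 at 24 h in the same order. Hsph1 had 76.5 (95% interval 70.7 to 82.6) in 6 h M2, 8.56 (95% interval 6.73 to 10.7) in 6 h M1 and 50.3 (95% interval 44.8 to 56.3) in 6 h M0, and 59.7, 27.6 and 15.7 at 24 h. In both genes M2 was the highest at both times, and at 6 h M1 was the lowest.

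Hspa1a was detected mainly in 6 h M1, with 277 UMIs in 173 barcodes, or 31.6 (95% interval 28 to 35.6) CPM, against 1 UMI in 6 h M0 and 13 in 6 h M2, and with 44 UMIs in 24 h M1. Hspa1b was counted 8 times in 6 h M1, 4 times in 24 h M1 and 0 times in the other 5 libraries, where 3 UMIs, the limit taken for a count of 0, are 0.355 to 0.524 CPM (the exact intervals reach 0.436 to 0.644). Hspa5 had 399.7 in 6 h M1, 238 in 6 h M2 and 193 in 6 h M0, so M1 was above M2 at 6 h, while at 24 h M2 was above M1 (435 and 286, with 229 in 24 h M0). Hsp90b1 and Calr were highest in 24 h M2, with 898 and 1026, against 465 and 531 in 24 h M0 and 702.7 and 824.9 in 0 h M0. Hspa8 was 1063 in 6 h M1, against 1048 in 6 h M0, and 604 in 24 h M1, against 999 in 24 h M0. Dnajb1, called higher in bulk 6 h M1 than in 0 h M0, had 31.85 in 6 h M1, 29.55 in 6 h M0, 29.68 in 6 h M2 and 27.47 in 0 h M0. Hsp90aa1 had 220.7 in 6 h M1, below 323.9 in 6 h M0 and 303.8 in 6 h M2. M0 itself moved in both directions from 0 h to 6 h: Hsp90aa1 from 160.5 to 323.9, Hspa8 from 733.4 to 1048 and Hspa5 from 333.4 to 193. The time of the cytosolic peak in bulk, 12 h, is not among the single-cell libraries analysed here.

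**Figure D5:**
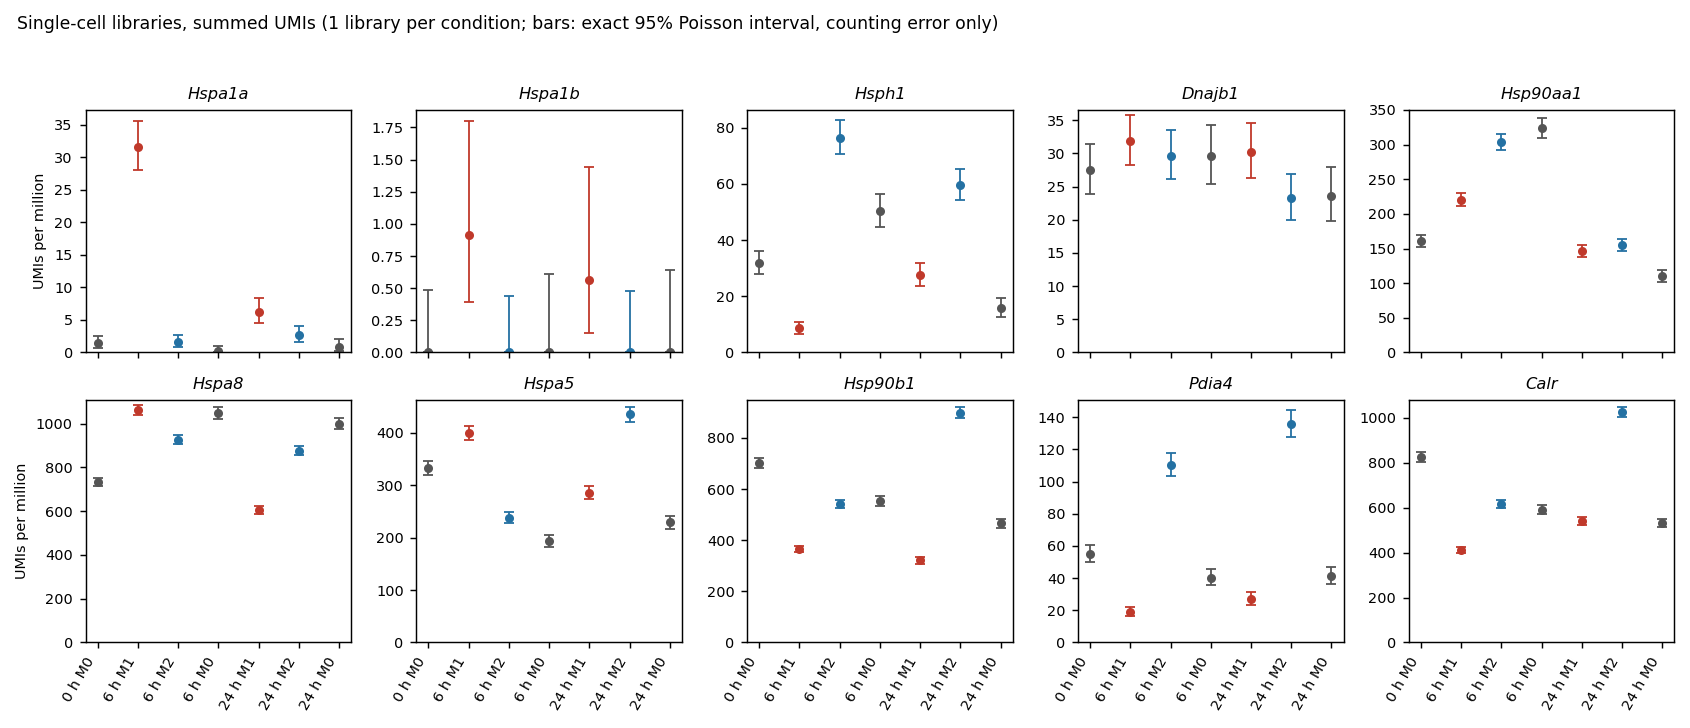
CPM of the 10 genes in the 7 single-cell libraries, 1 per condition; bars are exact 95% Poisson intervals, which cover counting error only. Pdia4 stood at 111 and 136 in 6 h and 24 h M2 and at 18.9 and 27.0 in 6 h and 24 h M1, and Hspa1a at 31.6 in 6 h M1.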

How the data were processed

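The authors aligned bulk reads to mm10 with TopHat2 2.0.14 and normalised them with Cuffnorm 2.2.2, and the deposited matrix, named as log10 FPKM and read here as log10(FPKM + 1) since its lowest value is 0, holds the genes that reached 10 FPKM in at least 1 library. External RNA spike-ins were added to the samples, but no spike-in is among the 8307 genes. The TruSeq v2 kit and the default settings of TopHat do not keep the strand, and the setting of the quantification, read counts and depth are not given in the sources used here. For ATAC-seq the authors deposited counts per site, with duplicates removed by SAMtools 1.9, sites called by MACS2 2.1.0 on all libraries merged and reads counted with bedtools 2.28.0. For single cells they deposited UMI counts per barcode made with Cell Ranger.

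FPKM were recovered from the log10 values and tested as log2(FPKM + 1) with limma 3.58.1 (R 4.3.3), in 1 linear model over all conditions with a trended prior, with Benjamini-Hochberg adjustment over the 8307 genes in each comparison and a threshold of 0.05. The study used a test that needs reads, which could not be run on this matrix. ATAC-seq sites with more than 10 counts in at least 1 library entered the quasi-likelihood test of edgeR 4.0.16 with TMM factors and Benjamini-Hochberg adjustment, and DESeq2 1.42.0, which the study used, was an alternative. Sites within 500 bp of a member's annotated start were read out. Depth was 1730488 to 9354620 counts per ATAC-seq library and 5725353 to 8761151 UMIs per single-cell library. Single-cell UMIs were summed per library and given as CPM with exact Poisson intervals, and no barcode was dropped or called a doublet.

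All 10 members are named, and from the 5 pathway lists up to 4 called genes per list with the largest differences at the time with most calls over all genes. Members and lists were chosen with earlier results of these data known. The comparisons of steps, of switched with kept cells and of M1 kept with 24 h M1 were added after seeing the data. Same-numbered libraries deviated together in 67 of 85 bulk comparisons (every pair over a correlation of 0.1), which is how pairing was judged, since no label ties a number to a mouse or a day. In ATAC-seq they did not. Alternatives were another pseudocount (0.1 or 10), no trend, a filter on low values, a same-median shift, quantile normalization, fits of the libraries of each comparison alone, the replicate block and leaving out each replicate. Libraries of 1 group are taken as separate samples. In bulk the p-values and standard errors rest on 1 spread per gene, pooled over all conditions, and not on that of the compared groups alone. In ATAC-seq the spread likewise comes from all 9 libraries. Intervals cover counting error only. On simulated data with independent noise, 50 of 8307 genes were changed in 12 h M1 at each of log2 0.585, 1, 2 and 3. Against 0 h M0 limma recovered 54%, 86%, 98% and 100% of them. For ATAC-seq 200 of 137586 sites were changed, and at the same sizes 11, 12, 12 and 9 of them had a mean count of at least 50. Of these edgeR recovered 0%, 75%, 100% and 100%. In the data far more were called than had been changed in simulation: 22575 sites higher and 19007 lower in 24 h M1 than in 0 h M0, and 3085 genes higher in 12 h M1. The adjustment was thus stricter in simulation, and the percentages do not give recovery in these data. Small differences at single sites could still be missed.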

Additional observations from a re-analysis of the deposited data

Results flagged for a closer look

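The response to IFN-γ and LPS was lower after 24 h of IL-4 than without it in 14 of 59 pairs of a gene and a time. It was higher in 1, with Hspa1a at 12 h left out. Over all genes 5.62% of pairs were lower and 4.32% higher. The difference itself was tested (limma adjusted p below 0.05, log2 response of M2→M1 cells minus that of M1 cells). The response of Hspa5 was lower after IL-4 at 2 h (-0.79), 4 h (-1.01), 6 h (-0.97), 12 h (-0.81) and 24 h (-1.04). That of Hsph1 was lower at 4 h (-1.06), 6 h (-1.56), 12 h (-0.77) and 24 h (-1.17), where at 4 h and 6 h it was below 0 in both arms (-2.02 and -2.05 after IL-4, against -0.96 and -0.48 without), and that of Hsp90b1 at 6 h (-0.53), 12 h (-0.75) and 24 h (-0.85). Pdia4 (-2.05) and Calr (-1.28) were lower at 24 h. A higher response after IL-4 was found for Dnajb1 at 24 h (0.68) and for Hspa1a at 12 h (1.10), where the value is a description, since Hspa1a entered the matrix through 36 h M2→M1 alone. The compared responses start from different levels, since Hsph1 and the 4 ER members were higher in 24 h M2 than in 0 h M0, and the summed neutrophil and precursor markers were 17.4 to 321 FPKM in 24 h M2, against 1024 to 2836 in 0 h M0. M2→M1 cells also lost IL-4 at the switch, while M1 cells had no cytokine removed. At 48 h Pdia4 differed from 24 h M2 by -1.83 in M2→M1 and by -1.73 in M2→M0. The part of start levels, markers and IL-4 removal in the differences was not tested. No library stood apart from its group by Dixon's test in the 4-library conditions (0 of 40 tests).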

How the results depend on the processing

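Of 910 pairs of a member and a bulk comparison 309 were called, and 114 of these lost the call under at least 1 alternative. No call changed with a filter on means of at least 10 FPKM, which left all 8307 genes, and 1 was gained without the trend. Pseudocounts of 0.1 and 10 lost 3 and 19 calls, the same-median shift 7, quantile normalization 37 and fits of each comparison's own libraries 49. Leaving out replicate 1, 2 or 3 lost 19, 64 and 75. All 6 cytosolic calls at 12 h M1 against 0 h M0 held without any 1 replicate. The cause of the changes listed next was not tested.

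Counts of members called moved as follows. M1 had 13 lower pairs than 0 h M0, and 20 after the same-median shift and 29 after quantile normalization. M2 had 0, and 1, 2 and, with the replicate block, 1. M1 had 3 higher pairs than M0 at the same time, and 5 with a pseudocount of 0.1, 1 after quantile normalization and 5 from its own libraries. M1→M0 had 2 higher pairs than 24 h M1, and 4 with the same median, 6 by quantile and 5 from its own libraries. M1→M2 had 0 lower pairs, and 1 from its own libraries. M2→M1 had 6 lower pairs than M2→M0, and 12 and 25 by the same median and quantile. Against M1 at equal hours M2→M1 had 24 higher and 1 lower, and 15 higher from its own libraries and 3 lower by quantile. The difference of responses was larger in 2, and in 1 with a pseudocount of 0.1, 4 with 10, 1 by quantile and 0 from own libraries. Washed cells had 3 pairs higher than kept ones, and 7 by quantile, and 2 higher than M0, and 1 with the same median. The steps had 11 higher, and 7 from own libraries.

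With 1 replicate left out, M1 against 0 h M0 gave 17 to 24 higher and 8 to 14 lower pairs, M2 25 to 34 and 0 to 2, later M0 0 and 0 to 2, M1 against M2 11 to 21 and 26 to 29, M1 against M0 2 to 5 and 7 to 8, M2 against M0 14 to 16 and 0. M1→M0 against 24 h M1 gave 1 to 3 higher and 8 to 26 lower, M2→M0 0 to 1 and 9 to 19, M1→M2 9 to 10 and 0, M2→M1 against M2→M0 12 to 21 and 6, against M1 15 to 28 and 0 to 2, the difference of responses 0 to 6 and 8 to 19. Washed against kept cells gave 3 to 4 and 8 to 11, against M0 1 to 2 and 2 to 5, steps 8 to 11 and 11 to 16, switched against kept cells 5 to 8 and 6 to 8, and M1 kept 0 and 7 to 14.

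Quantile normalization turned the direction of 23 values, 9 of them called as reported. Against 0 h M0 these were Hspa8 in 4 h M1 (-0.34), Hsp90b1 in 6 h (-0.86) and 12 h M1 (-0.62) and Hspa5 in 12 h M1 (-0.079). For M1 minus M2 they were Hsp90b1 at 2 h (-0.32), Hspa8 at 4 h (-0.26) and 6 h (-0.26) and Hspa5 at 4 h (-0.62) and 6 h (-0.62). For M1→M0 minus 24 h M1 they were Hspa5 (0.015) and Hsp90b1 (0.036) at 36 h and Hsp90b1 at 96 h (0.31). For M2→M1 minus M2→M0 they were Hsp90b1 at 26 h (-0.39), Hspa8 (-0.35), Hspa5 (-0.37) and Calr (-0.44) at 28 h, Hspa8 (-0.32), Hspa5 (-0.52) and Calr (-0.55) at 30 h, Hspa5 (-0.49) and Pdia4 (-0.55) at 36 h and Hspa5 at 48 h (-0.15). The last was Hsp90b1 in 24 h minus 12 h M1 (0.016).

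With replicate number as a block, 35 bulk member results gained the call, none lost it and no direction turned. Some gains were in comparisons whose numbers did not pair libraries. These were Hspa5 in 48 h M1 and Calr in 96 h M2 against 0 h M0, and Pdia4 in 96 h M1 against 96 h M0. The others were Calr in 30 h M2→M0 against 24 h M2 and Pdia4 in 28 h M2→M1 against 28 h M2→M0. For differences of responses pairing was not checked. In ATAC-seq, where the numbers do not pair libraries, the block left 1 of 3 sites higher in 24 h M1 than 0 h M0 and 1 of 2 lower in 96 h M1→M0, and 4 member sites lost a call. DESeq2 and no filter also left 1 of 3, and a window of 1000 bp gave 5, and 2 higher in place of 1 in 96 h M1→M0 against 0 h M0. Leaving out a replicate gave 1 to 6 higher and 0 lower in 24 h M1, 1 and 0 to 2 in 96 h M1→M0 against 0 h M0, and 0 and 1 to 7 against 24 h M1. Among 70 single-cell values, 4 moved beyond the counting interval with barcodes of at least 1000 UMIs, none with at least 500, and 50 without the 10 most abundant genes in the total. Hspa1b had at most 8 UMIs in a single-cell library, in 6 h M1, where Hspa1a had 277. In bulk 6 h M1 the order was the reverse, with means of 9.82 FPKM for Hspa1b and 5.57 for Hspa1a. The cause of this reversal was not tested. Depth was lowest in the ATAC-seq library of 1730488 counts.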

Other observations

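One hour after the M1 cytokines, 1 library of 3 stood high for both inducible Hsp70 genes in both arms. Hspa1a had 1.47, 0.0546 and 0.104 FPKM in 1 h M1 and 2.11, 0.185 and 0.443 FPKM in 25 h M2→M1. Hspa1b had 4.59, 0.267 and 0.394 FPKM in 1 h M1. The high library was replicate 1 each time, and at 6 h, 12 h, 30 h and 36 h replicate 1 was the lowest of the 3 for both genes. No member passed limma in 1 h M1 against 0 h M0, with 3 higher at an unadjusted p below 0.05 and none lower. The share of all genes called at 1 h alone is not given here, so the lack of calls does not set the members apart. Whether replicate 1 differed in handling was not tested.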
